A study of Mus musculus with 2 samples.

Results

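A set of 7 homeobox and zinc finger genes of the posterior embryo, Cdx1, Cdx2, Cdx4, Evx1, Mixl1, Nkx1-2 and Sp5, were followed through nuclear RNA and chromatin accessibility in mouse embryos at embryonic day 7.0. The genes were taken by symbol, 7 of the 32285 genes in the files, together with every accessibility peak within 50000 bp of their transcription starts, 150 of 229480 peaks. The study pooled E7.0 embryos, isolated their nuclei and made 1 RNA library and 1 accessibility library from the same nuclei, so each nucleus gave both readouts. No genotype or treatment was compared. The title, age and protocol named E7.0 embryos, whereas the tissue, cell type and strain entries named the small intestine, goblet cells and the strain RedMUC298trTg.

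Cdx1, Cdx2 and Cdx4 are the caudal-type homeobox genes, which pattern the trunk and tail through the Hox genes; Cdx2 is also required for trophoblast, the lineage of the placenta, and Cdx1 and Cdx2 mark the intestine later in life. Mixl1 and Evx1 are homeobox genes of the primitive streak, the groove through which epiblast cells leave to form mesoderm and endoderm. Sp5 is a zinc finger factor and a direct target of Wnt signalling, and Nkx1-2 is a homeobox gene of the caudal epiblast beside the streak.

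The stretch before a start is where a factor bound near the gene would sit, and in the genes shown it lies within the start peak described below. RefSeq sequence of GRCm38.p6 was matched by symbol for 5 of the 7 genes (all but Cdx1 and Mixl1). Of these, 3 are shown, chosen by how their promoter peaks related to RNA over the 17 clusters of nuclei described below. Promoter counts and RNA had Pearson coefficients of 0.76 for Sp5 and 0.78 for Evx1, but 0.03 for Cdx2. Nkx1-2 and Cdx4, whose stretches are not shown, had 0.76 and 0.35. Whether the motifs bear on these coefficients was not tested. In some classes the Sp5 and Evx1 promoter peaks also departed from the RNA, as given below. Each line gives the 250 bases before the start, 5′ to 3′ on the gene's strand. The Sp5 stretch is chr2:70474673-70474922 on the plus strand, the Evx1 stretch chr6:52313248-52313497 on the plus strand and the Cdx2 stretch chr5:147307250-147307499 on the minus strand. Capitals mark matches on either strand to CTTTGA (the core of TCF/LEF sites, through which Wnt signalling acts), TTTATNG (CDX), TCACAC (the core of a T-box site), GGGCGG (a GC box of Sp and KLF factors) or AATNCACA (FOXH1).
Sp5: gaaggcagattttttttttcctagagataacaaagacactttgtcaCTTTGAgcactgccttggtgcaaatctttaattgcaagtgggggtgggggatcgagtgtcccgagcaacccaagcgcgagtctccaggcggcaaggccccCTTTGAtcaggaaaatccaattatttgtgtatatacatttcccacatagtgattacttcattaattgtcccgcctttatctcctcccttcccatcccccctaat
Evx1: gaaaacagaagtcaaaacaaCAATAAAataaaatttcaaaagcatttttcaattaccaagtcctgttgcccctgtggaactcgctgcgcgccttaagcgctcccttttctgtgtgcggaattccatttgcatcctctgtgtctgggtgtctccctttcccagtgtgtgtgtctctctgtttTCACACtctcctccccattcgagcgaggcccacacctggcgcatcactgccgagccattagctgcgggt
Cdx2: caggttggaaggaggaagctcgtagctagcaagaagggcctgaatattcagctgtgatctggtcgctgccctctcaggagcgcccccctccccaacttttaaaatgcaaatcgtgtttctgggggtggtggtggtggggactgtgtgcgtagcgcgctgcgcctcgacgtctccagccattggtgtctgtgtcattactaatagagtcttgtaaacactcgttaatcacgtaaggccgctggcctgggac
Sp5 held 2 matches to CTTTGA, at 204 to 199 and 104 to 99 bases before the start. At least 1 such match was present in 3797 of 27025 mouse promoters of the same length. Evx1 held 1 match to TTTATNG on the opposite strand, 230 to 224 bases before the start, and 1 to TCACAC, 69 to 64 bases before it, and 10.2% and 12.2% of promoters held these. None of the 5 motifs was found in the Cdx2 or Cdx4 stretch, and Nkx1-2 held 2 matches to GGGCGG, a motif present in 32.9% of promoters. A match is a run of letters and not evidence of binding.

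After filters on depth and doublets, 12796 of 15341 barcodes remained, with medians of 10471 UMIs (unique RNA molecules) and 17350 peak counts. Nuclei were clustered on accessibility with the 150 peaks left out, and clusters were named from RNA markers that included none of the 7 genes. The classes were epiblast-like (1528 nuclei), primitive streak-like (1005), embryonic mesoderm-like (1285), extraembryonic mesoderm-like (541), haemato-endothelial progenitor-like (366), anterior streak, node and definitive endoderm-like (1043), visceral endoderm-like (608), extraembryonic ectoderm-like (1463) and ectoplacental cone and giant cell-like (131). The last 2 are counted as trophoblast below. The smaller one is mixed in its leading genes, which hold the giant cell genes Prl3d1, Prl3d2 and Prl3d3 beside the globins Hbb-bs, Hba-a1 and Hba-a2 and the endothelial Cdh5, and its haemato-endothelial list summed to 303.05 CPM of RNA, against 69.0 in extraembryonic ectoderm; the part of such cells in its values was not tested. The other 4826 nuclei stayed unnamed, and the names are used below without "-like". Not every list separated streak from the mesoderms. The primitive streak list summed to 448.4 CPM in streak, 463.5 in embryonic mesoderm and 389.1 in extraembryonic mesoderm. The embryonic mesoderm list stood at 1708 CPM in embryonic mesoderm, 1335 in extraembryonic mesoderm and 231.0 in streak. The extraembryonic mesoderm list stood at 611.2 CPM in its own class, 128.9 in embryonic mesoderm and 34.5 in streak. It also reached 496.6 CPM in extraembryonic ectoderm, 316.8 in ectoplacental cone and 312.3 in haemato-endothelial progenitors. Its sum thus separated the class less from trophoblast than from streak. Ranges and orders over classes leave the unnamed clusters out unless one is mentioned. Levels are in CPM, the count of a gene or peak summed over a class and scaled to the total UMIs, or total peak counts, of that class. With 1 library there was no replicate and no test: intervals are exact, at 95%, and cover counting error only. A ratio is called at 2-fold or more on at least 20 summed counts. Of the intestinal and goblet genes, Muc2 had 17 UMIs, Tff3 6 and Cdh17 45 in all kept nuclei, while Vil1, which visceral endoderm also makes, reached 100.2 CPM in the visceral endoderm. Lct (lactase) had 537 UMIs and was highest in embryonic mesoderm, at 7.94 CPM against 1.20 in epiblast.

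Mixl1 and Sp5 formed a pair with their highest RNA in embryonic mesoderm. Mixl1 stood at 122.0 CPM (116.3 to 127.9) in embryonic mesoderm, 77.0 in anterior streak, node and endoderm, 71.7 in extraembryonic mesoderm, 56.9 in primitive streak, 46.5 in haemato-endothelial progenitors, 24.1 in visceral endoderm, 16.4 in epiblast, 11.9 in extraembryonic ectoderm and 9.29 in ectoplacental cone. Its level in embryonic mesoderm stood clear of every other class, while anterior streak and extraembryonic mesoderm had overlapping intervals, as had primitive streak and haemato-endothelial progenitors, and the trophoblast classes. Sp5 stood at 130.5 CPM (124.6 to 136.6) in embryonic mesoderm, 114.3 in anterior streak, node and endoderm, 59.6 in primitive streak, 47.7 in visceral endoderm, 47.0 in extraembryonic mesoderm, 22.1 in haemato-endothelial progenitors, 17.8 in epiblast, 11.8 in extraembryonic ectoderm and 10.2 in ectoplacental cone. The intervals of visceral endoderm and extraembryonic mesoderm overlapped. The class of anterior streak, node and endoderm joined 2 clusters, and both were high: one, whose leading genes include the cilium genes Cfap44, Dnah5 and Foxj1, held 110.2 CPM of Sp5 (102.3 to 118.4) and 92.1 CPM of T, and the other, with Cer1 among its leading genes, held 120.5 CPM of Sp5 (110.6 to 131.1) and 34.9 CPM of T. An unnamed cluster of 458 nuclei, whose best-scoring marker list was that of anterior streak, node and endoderm, also held 95.5 CPM of Sp5 (88.4 to 103.1) with 32.1 CPM of Mixl1. The visceral endoderm class is 1 cluster of 608 nuclei, and a larger unnamed cluster of 1363 nuclei, whose best-scoring list was also that of visceral endoderm, was low, with 10.98 CPM of Sp5 (9.54 to 12.6), 10.6 of Mixl1 and 3.27 of Evx1.

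Evx1 differed from that pair in being highest in extraembryonic mesoderm, the tissue of allantois, amnion and yolk sac. It stood at 59.6 CPM (53.7 to 66.1) there, 40.5 in embryonic mesoderm, 29.0 in haemato-endothelial progenitors, 28.6 in primitive streak, 11.9 in visceral endoderm, 8.81 in anterior streak, node and endoderm, 8.20 in epiblast, 3.04 in extraembryonic ectoderm and 1.77 in ectoplacental cone. The first 2 classes had separate intervals, and those of haemato-endothelial progenitors and streak overlapped. Evx1os, a noncoding RNA gene that overlaps Evx1, followed it closely, at 56.0 CPM in extraembryonic mesoderm, 44.9 in embryonic mesoderm, 28.2 in streak and 1.32 in extraembryonic ectoderm. The use of strand in counting is not given in the sources used here, so reads of the 2 genes cannot be told apart.

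Cdx2 had 54.4% of its 2828 UMIs in the trophoblast classes (53.1% in extraembryonic ectoderm alone), against 2.98% to 4.57% for Evx1, Mixl1 and Sp5. Extraembryonic ectoderm made up 11.4% of kept nuclei and ectoplacental cone 1.02%. Cdx2 stood at 76.1 CPM (72.3 to 80.1) in extraembryonic ectoderm and 15.9 (11.2 to 22.05) in ectoplacental cone. A second, lower site was extraembryonic mesoderm, at 34.1 CPM (29.7 to 39.1), followed by visceral endoderm at 15.2. The unnamed cluster of 1363 nuclei that was low in Sp5 held 17.8 CPM of Cdx2 (15.9 to 19.8), and the unnamed one of 186 nuclei 21.8 CPM (14.98 to 30.6). Between 4.76 and 7.62 CPM were found in epiblast, streak, embryonic mesoderm, haemato-endothelial progenitors and anterior streak, where the intervals of neighbours in the order all overlapped. The 2 clusters of extraembryonic ectoderm held 87.2 CPM (81.7 to 93.0) and 63.1 CPM (58.0 to 68.5) of Cdx2.

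The other 3 genes were sparse. Cdx1 had 165 UMIs, and 49.7% lay in the mesoderm classes, at 5.55 CPM (3.85 to 7.76) in extraembryonic and 3.37 CPM (2.49 to 4.47) in embryonic mesoderm, against 0.12 to 1.02 CPM in the other 7 named classes. Extraembryonic mesoderm made up 4.23% of kept nuclei and embryonic mesoderm 10.0%. The intervals of the 2 mesoderms overlapped each other and stood above those of epiblast and streak. An unnamed cluster of 186 nuclei held 3.30 CPM on 5 UMIs (1.07 to 7.69). Cdx4 had 21 UMIs in all, 13 of them in extraembryonic mesoderm (2.12 CPM, 1.13 to 3.63) and 4 in streak. None were counted in embryonic mesoderm or extraembryonic ectoderm, where the floor of 3 UMIs stands at 0.211 and 0.152 CPM. Nkx1-2 had 82 UMIs, with 6 in haemato-endothelial progenitors (1.52 CPM), 16 in streak (1.33 CPM), 14 in epiblast (0.88 CPM), 9 in extraembryonic mesoderm (1.47 CPM) and 2 in extraembryonic ectoderm (0.10 CPM). The intervals of the 5 highest Nkx1-2 classes overlapped from each to the next.

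**Figure D1:**
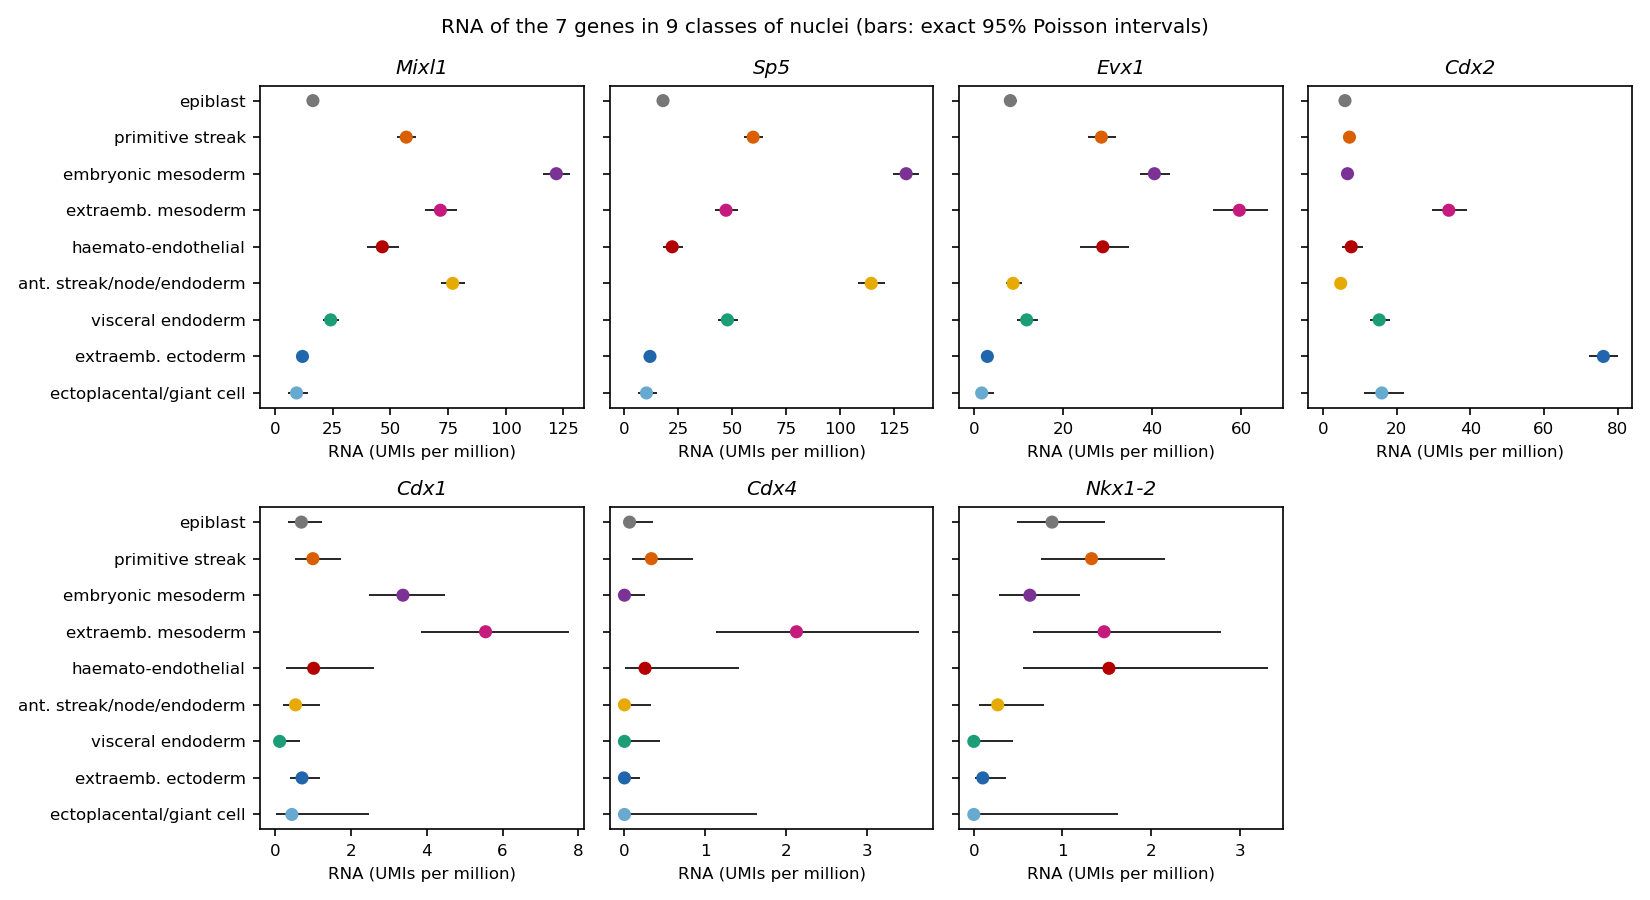
RNA of each gene (horizontal axis, CPM, starting just below 0) in 9 classes of nuclei (rows). Points are levels and bars exact 95% Poisson intervals; Mixl1 and Sp5 peak in embryonic mesoderm at 122.0 and 130.5 CPM, Evx1 in extraembryonic mesoderm at 59.6 CPM and Cdx2 in extraembryonic ectoderm at 76.1 CPM.

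Shares of nuclei with a UMI were compared at equal depth. Nuclei were thinned to 5000 UMIs, which left out 98 embryonic mesoderm, 30 extraembryonic mesoderm, 117 extraembryonic ectoderm and 47 visceral endoderm nuclei. Mixl1 was then seen in 40.4% (37.6 to 43.3) of embryonic mesoderm nuclei and Sp5 in 44.0% (41.1 to 46.9), against 57.7% and 60.8% unthinned. In extraembryonic ectoderm, whose lineage is not known to make either gene, 5.42% and 5.94% had a UMI after thinning. The epiblast shares were 8.11% (6.77 to 9.63) for Mixl1 and 6.88% (5.64 to 8.30) for Sp5, whose intervals meet or overlap those of extraembryonic ectoderm, although the summed levels of both genes had separate intervals in these 2 classes. The part of free RNA in these low shares was not tested. Median depth was 10561 UMIs in embryonic mesoderm, 12259 in extraembryonic ectoderm and 12885.5 in visceral endoderm. Evx1 was seen in 21.1% (17.7 to 24.9) of extraembryonic mesoderm nuclei, 40.9% unthinned, against 1.49% in extraembryonic ectoderm and 5.17% in visceral endoderm. Cdx2 was seen in 28.5% (26.1 to 31.0) of extraembryonic ectoderm nuclei, 52.0% unthinned, and in 12.1% (9.43 to 15.3) of extraembryonic mesoderm, against 2.93% in epiblast and 2.15% in anterior streak. In visceral endoderm the shares were 10.3% for Mixl1, 17.8% for Sp5 and 6.95% for Cdx2. Cdx1 reached 3.52% of extraembryonic mesoderm nuclei (6.10% unthinned), Cdx4 1.17% and Nkx1-2 at most 0.978% in any of the 9 classes.

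Primitive streak was compared with epiblast to see which of the genes were higher as cells entered the streak. Evx1 was 3.50-fold higher (2.85 to 4.31), Mixl1 3.47-fold (3.004 to 4.02) and Sp5 3.34-fold (2.91 to 3.85). These were 3 of the 6 genes with enough counts, while 2.8% of all tested genes were 2-fold higher and 3.11% 2-fold lower. Cdx2 had a ratio of 1.21 (0.889 to 1.63), and Cdx1 and Nkx1-2, on 23 and 30 UMIs, had intervals that included 1. T, a streak gene that helped name the class, was 3.96-fold higher. Streak was not its highest class, at 90.3 CPM (85.1 to 95.9). T stood at 134.4 CPM (123.2 to 146.4) in haemato-endothelial progenitors and 106.5 (98.5 to 115.0) in extraembryonic mesoderm. The epiblast class joined 2 clusters that differed in these genes: Evx1 stood at 13.3 CPM (10.95 to 16.0) in one and 2.42 CPM (1.43 to 3.82) in the other, Sp5 at 26.2 and 8.33 CPM, and T at 36.2 and 7.66 CPM. Over the alternative settings for classes and levels, the streak ratio stayed between 3.25 and 7.02 for Evx1, 3.38 and 6.28 for Mixl1 and 3.23 and 6.68 for Sp5. Cdx1 ranged from 1.44 to 14.0, so its streak ratio depended on how the classes were drawn.

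In embryonic mesoderm over epiblast, Mixl1 was 7.44-fold (6.53 to 8.51), Sp5 7.31-fold (6.45 to 8.32), Evx1 4.95-fold (4.08 to 6.03) and Cdx1 4.86-fold (2.49 to 10.4) higher, 4 of 6 genes tested against 8.56% of all genes. Cdx2 was at 1.11-fold (0.828 to 1.4996). Against primitive streak, embryonic mesoderm had 2.14-fold (1.96 to 2.35) more Mixl1, 2.19-fold (2.01 to 2.39) more Sp5 and 3.38-fold (1.77 to 7.001) more Cdx1, where 6.18% of genes were 2-fold higher. Nkx1-2 was 2.10-fold lower on 25 UMIs, with an interval of 0.874 to 5.39 that includes 1, beside 7.9% of genes 2-fold lower. Over the alternatives these ratios ran from 1.57 to 2.50 for Mixl1, 1.56 to 2.48 for Sp5 and 1.499 to 3.38 for Cdx1, all higher in embryonic mesoderm, and from 0.420 to 0.681 for Nkx1-2. With classes taken from RNA clusters, at resolution 2 or with doublet calls kept, 0 of the 7 genes passed 2-fold. T had a ratio of 0.942 (0.867 to 1.02).

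Extraembryonic mesoderm over epiblast was the comparison with most of the genes higher, 5 of 6 tested beside 8.83% of all genes. Cdx1 was 8.01-fold (3.96 to 17.5), Evx1 7.27-fold (5.94 to 8.96), Cdx2 5.76-fold (4.49 to 7.43), Mixl1 4.37-fold (3.74 to 5.12) and Sp5 2.64-fold (2.23 to 3.12) higher. Cdx4 fell short of 20 counts, with 13 UMIs against 1 and a ratio of 33.7 whose interval ran from 5.06 to 1431. With classes from RNA clusters or at resolution 0.5 no cluster was named extraembryonic mesoderm, so this comparison has no value in those settings.

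In extraembryonic ectoderm over epiblast, Cdx2 was 12.8-fold higher (10.4 to 16.0) and Evx1 2.69-fold lower (1.97 to 3.72). They were 1 higher and 1 lower of 5 tested, beside 11.8% and 20.4% of all genes. Mixl1 and Sp5 had ratios of 0.724 (0.604 to 0.867) and 0.662 (0.554 to 0.790). The lower level of Evx1 passed 2-fold in some settings only, with ratios of 0.331 to 0.749, whereas Cdx2 stayed 9.43- to 17.6-fold higher. Against primitive streak, Cdx2 was 10.7-fold higher (8.58 to 13.4, 11.9% of all genes higher). Evx1 was 9.42-fold (7.14 to 12.6), Sp5 5.05-fold (4.35 to 5.88) and Mixl1 4.80-fold (4.13 to 5.59) lower, 3 of 5 tested beside 19.8% of genes.

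**Figure D2:**
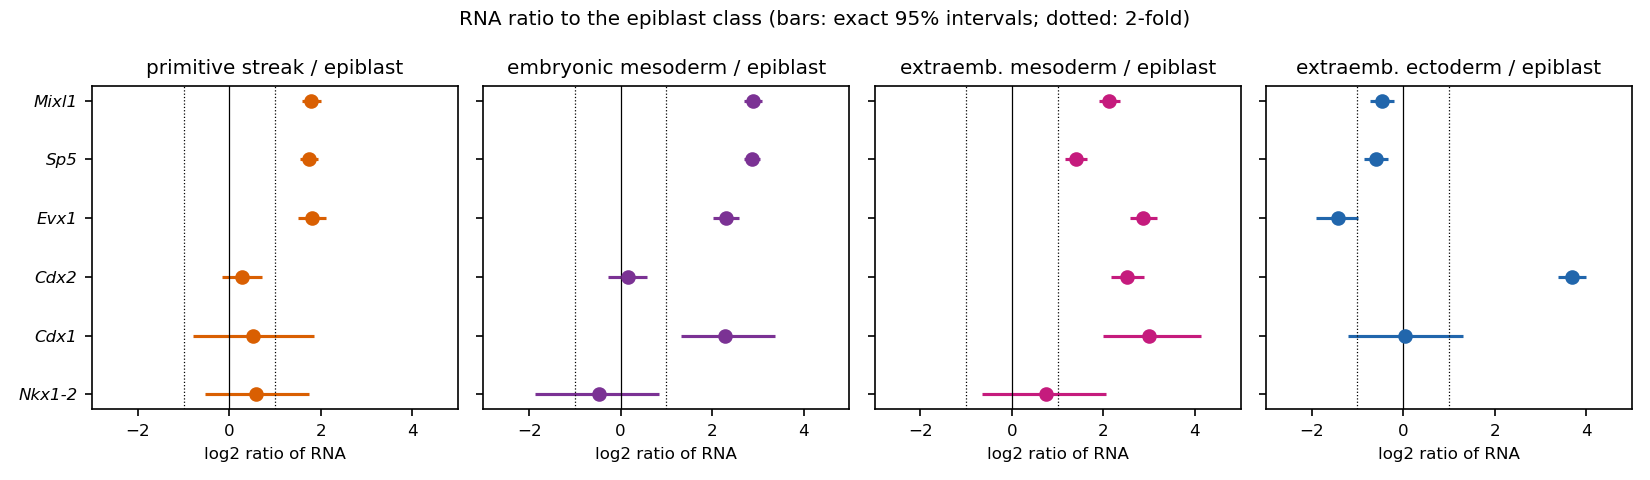
Ratio of RNA to the epiblast class on a log2 scale (horizontal axis) for the 6 genes with enough counts (rows), with exact 95% intervals; genes under 20 summed counts in a comparison are not drawn and dotted lines mark 2-fold. Evx1, Mixl1 and Sp5 lie right of the 2-fold line in streak and both mesoderms, and Cdx2 in extraembryonic mesoderm and extraembryonic ectoderm, at 5.76- and 12.8-fold.

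Other genes of the same pathways were read from fixed lists, several of whose members also served to name classes, so their direction is not independent of the class. Of 12 Wnt target and feedback genes, 4 (Axin2, Nkd1, Notum and Sp8) were 2-fold higher and 0 lower in streak over epiblast, where 2.8% of all genes were higher and 3.11% lower, with a median log2 ratio of 0.82 beside 0.01 for all genes. In extraembryonic ectoderm over epiblast 6 of the 12 were lower and 1, Apcdd1, was higher, with a median of -1.06, where 20.4% of all genes were lower and 11.8% higher. In embryonic mesoderm over epiblast 5 were higher and 0 lower, where 8.56% and 11.1% of all genes were. In extraembryonic mesoderm over epiblast 6 were higher (Axin2, Nkd1, Notum, Lgr5, Dkk1 and Apcdd1) and 1 (Rnf43) was lower, where 8.83% and 11.6% of all genes were. The median log2 ratio was 0.99 in that comparison, above the 0.82 of streak over epiblast. In embryonic mesoderm over streak, where Sp5 was higher, 4 (Notum, Rnf43, Lgr5 and Sp8) were lower and 1 (Lef1) higher. The median there was -0.39, and 7.9% of all genes were lower and 6.18% higher. Axin2, which Wnt signalling induces as its own brake, stood at 34.1 CPM in epiblast, 98.7 in streak and 25.3 in extraembryonic ectoderm. All 7 tested genes of the list of paraxial and nascent mesoderm were higher in embryonic mesoderm over epiblast, with a median log2 ratio of 3.39, where 8.56% of all genes were higher. Of the Hox genes that Cdx factors are known to regulate, 4 of 10 had enough counts in extraembryonic mesoderm over epiblast and all 4 (Hoxb1, Hoxb2, Hoxb3 and Hoxd1) were higher, where 8.83% of all genes were. Hoxb1 stood at 17.6 CPM there, 9.21 in embryonic mesoderm and 1.51 in epiblast. Of 11 trophoblast factors, 9 were higher and 0 lower in extraembryonic ectoderm over epiblast, where 11.8% of all genes were higher and 20.4% lower. Elf5 stood at 200.5 against 9.14 CPM and Esrrb at 165.4 against 4.85 CPM. Eomes and Sox2, on the same list, did not reach 2-fold. Eomes stood at 153.5 CPM there, 91.5 in epiblast and 332.2 in embryonic mesoderm.

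Accessibility around the genes was read over 150 peaks: 29 near Cdx2, 26 near Evx1, 25 near Sp5, 23 near Cdx1, 19 near Nkx1-2, 18 near Mixl1 and 10 near Cdx4. In streak over epiblast, 7 of 145 tested peaks were 2-fold more open and 12 less open, beside 5.26% and 11.2% of all peaks, so the share near these genes was close to the background. In embryonic mesoderm over epiblast 32 of 148 were more open (14.1% of all peaks) and 18 less (16.6%), and Sp5 held 12 and Mixl1 8 of the former. In extraembryonic mesoderm over epiblast the counts were 28 and 26 of 146 (14.2% and 21.4%). In extraembryonic ectoderm over epiblast 85 of 146 were less open (37.7% of all peaks) and 7 more open (13.6%). Evx1 had 24 of its 25 tested peaks in the lower set and Sp5 18 of 25. In embryonic mesoderm over streak the counts were 29 more open (15.3%) and 8 less (10.6%) of 145, and these 37 calls became 20 with doublet calls kept. In extraembryonic ectoderm over streak the counts were 14 (17.1%) and 72 (34.6%) of 137.

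The Cdx2 promoter peak (chr5:147306711-147307557, mm10 coordinates, over the start and first part of Cdx2) did not follow Cdx2 RNA. It stood at 26.1 CPM of peak counts in epiblast, 30.1 in streak, 19.9 in embryonic mesoderm, 27.5 in extraembryonic mesoderm, 26.8 in visceral endoderm, 23.6 in extraembryonic ectoderm and 21.6 in ectoplacental cone, and between 17.3 and 31.7 in single clusters. Extraembryonic ectoderm over epiblast gave a ratio of 0.907 (0.782 to 1.05), while Cdx2 RNA was 12.8-fold higher. A different peak, 9.38 kb downstream of the start (chr5:147297486-147298285, beyond the gene's end and within Gm35112), was open in trophoblast. It stood at 31.9 CPM (28.8 to 35.1) in extraembryonic ectoderm and 27.5 CPM (19.9 to 37.0) in ectoplacental cone, against 0.0918 to 1.39 CPM in the other 7 classes. In extraembryonic ectoderm it was 20.3-fold (16.9 to 24.3) more open than in all other nuclei and 27.5-fold (17.4 to 46.2) more than in epiblast. This peak was picked by the size of its fold over all other nuclei, and the intervals do not cover the choice. The 2 clusters of extraembryonic ectoderm held 39.5 and 24.5 CPM, in the same order as their Cdx2 RNA. Ectoplacental cone broke that order. Its 27.5 CPM at the peak exceeded the 24.5 of the second cluster, while its Cdx2 RNA was 15.9 against 63.1 CPM. In extraembryonic mesoderm, the second site of Cdx2 RNA, the peak held 1 count, and its ratio to epiblast was 0.0793 (0.00191 to 0.499) but 1.06 with doublet calls kept. The start of Plut lies elsewhere in the same 50000 bp window, further from Cdx2 than this peak. Plut is a noncoding gene beside Pdx1, with 50.4 CPM of RNA in extraembryonic ectoderm and 0.83 to 5.84 CPM in the other classes. Whether the peak acts on either gene was not tested.

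Other Cdx2 peaks, chosen after their values were seen, had other patterns. The peak 2.34 kb downstream of the start, inside the gene, was most open in extraembryonic mesoderm (35.1 CPM) and streak (28.6), with 22.1 CPM in epiblast and 15.7 in extraembryonic ectoderm. The peak 7.72 kb downstream stood at 62.4 CPM in visceral endoderm, 57.0 in ectoplacental cone, 42.6 in extraembryonic ectoderm and 19.8 to 22.4 in the other classes. A peak 10.2 kb upstream, within Urad, stood at 12.7 CPM in visceral endoderm and 10.02 in the unnamed cluster of 1363 nuclei, against 0.751 to 2.47 in the other named classes.

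The Mixl1 promoter peak (chr1:180696765-180697609) varied with Mixl1 RNA across classes. It stood at 50.8 CPM of peak counts in embryonic mesoderm, 39.0 in anterior streak, 37.3 in extraembryonic mesoderm, 29.0 in streak, 17.7 in epiblast and 14.3 in extraembryonic ectoderm. Embryonic mesoderm over epiblast gave 2.87-fold (2.51 to 3.29) and streak over epiblast 1.64-fold (1.40 to 1.91), smaller than the RNA ratios. A peak 5.78 kb upstream, which overlaps no RefSeq gene, was 2.83-fold (1.81 to 4.52) more open in streak, 5.13-fold (3.42 to 7.92) in embryonic and 6.86-fold (4.42 to 10.9) in extraembryonic mesoderm over epiblast. It was highest in haemato-endothelial progenitors, at 14.2 CPM. A peak 12.5 kb upstream was highest in visceral endoderm, at 11.9 CPM. A peak 18.4 kb upstream stood at 9.995 CPM in visceral endoderm, 12.6 and 3.85 in the 2 clusters of anterior streak, node and endoderm, and 13.1 in the unnamed cluster of 458 nuclei. These distal Mixl1 peaks were picked by the size of their fold of 1 class over all other nuclei, and the intervals do not cover the choice.

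The Sp5 promoter peak (chr2:70474573-70475436), which covers the sequence with the CTTTGA matches shown above, stood at 58.8 CPM in embryonic mesoderm, 57.3 in extraembryonic mesoderm, 44.7 in visceral endoderm, 43.6 in anterior streak, 33.6 in streak, 20.3 in epiblast and 4.84 in extraembryonic ectoderm. It was as open in extraembryonic as in embryonic mesoderm within the intervals, while Sp5 RNA was 47.0 against 130.5 CPM. A peak 2.84 kb upstream, chosen after its values were seen, did separate the 2 mesoderms, at 26.8 against 57.6 CPM. Distal peaks 30.9 kb upstream and 26.0 kb downstream were embryonic mesoderm-high, at 21.1 and 13.5 CPM, 5.46-fold (4.68 to 6.36) and 6.38-fold (5.20 to 7.82) over all other nuclei. They were picked by the size of that fold, and the intervals do not cover the choice. Both were also higher in streak over epiblast, by 2.49-fold (1.86 to 3.35) and 2.57-fold (1.54 to 4.42). A peak 31.2 kb downstream was instead open in visceral endoderm (15.9 CPM) and anterior streak (9.58 CPM), with 0.125 to 1.73 CPM in the other named classes. It was highest, at 31.4 CPM, in the unnamed cluster of 458 nuclei that held 95.5 CPM of Sp5 RNA. Both downstream peaks overlap Gad1os.

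Evx1 had 3 peaks within 1000 bp of its starts. The one on the start (chr6:52313213-52314097) stood at 31.3 CPM in embryonic mesoderm, 29.2 in extraembryonic mesoderm, 27.8 in streak, 22.1 in epiblast and 3.59 in extraembryonic ectoderm, 0.162-fold (0.117 to 0.221) of epiblast. It varied less among the embryonic classes than Evx1 RNA did, with streak over epiblast at 1.26-fold (1.08 to 1.46). The peak 1.95 kb upstream, in Evx1os, was highest in extraembryonic mesoderm at 20.9 CPM, 2.93-fold (2.26 to 3.80) over epiblast. It was picked by the size of its fold of 1 class over all other nuclei, and the interval does not cover the choice. A peak 19.3 kb downstream, chosen after its values were seen, stood at 36.2 CPM in extraembryonic mesoderm, 31.9 in haemato-endothelial progenitors, 31.8 in visceral endoderm, 25.5 in embryonic mesoderm, 11.6 in streak, 7.30 in epiblast and 1.25 in extraembryonic ectoderm. The peak 13.5 kb downstream, also picked by such a fold, was highest in haemato-endothelial progenitors, at 20.8 CPM against 0.626 in extraembryonic ectoderm.

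The Cdx1 start peak was highest in streak, at 28.4 CPM of peak counts, with 20.8 in embryonic mesoderm, 20.6 in extraembryonic mesoderm, 14.99 in epiblast and 6.76 in extraembryonic ectoderm. Its order thus differed from that of Cdx1 RNA, which stood at 0.996 CPM in streak. A peak 11.2 kb upstream was highest in both mesoderms, at 15.1 CPM in embryonic and 11.3 in extraembryonic mesoderm against 3.99 in epiblast. Peaks 10.5 and 22.5 kb upstream were highest in extraembryonic mesoderm, at 10.2 and 7.07 CPM, followed by haemato-endothelial progenitors at 5.95 and 4.70, with 4.43 and 1.72 in embryonic mesoderm. All 3 lie inside Pdgfrb, a growth factor receptor gene with 34.3 CPM of RNA in extraembryonic and 23.0 in embryonic mesoderm against 2.96 in epiblast. The Cdx4 promoter peak stood at 4.70 to 6.41 CPM in the 6 classes from epiblast to anterior streak, and at 0.297 to 0.876 CPM in visceral endoderm and the trophoblast classes. A peak 16.0 kb upstream of Cdx4, chosen after its values were seen and with 196 counts, stood at 6.61 CPM in extraembryonic mesoderm and 6.89 in haemato-endothelial progenitors, 2.08 in embryonic mesoderm and at most 0.334 in the other named classes. The Nkx1-2 promoter peak was highest in streak (10.3 CPM) and epiblast (9.62), against 2.59 in extraembryonic ectoderm. A peak 40.2 kb downstream of its start, inside Oat, had another order, at 61.7 CPM in visceral endoderm, 33.8 in haemato-endothelial progenitors and 14.97 in extraembryonic ectoderm, against 1.13 in streak and 1.448 in epiblast. Oat RNA stood at 247.7 CPM in visceral endoderm and 41.6 to 69.1 in the other named classes.

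**Figure D3:**
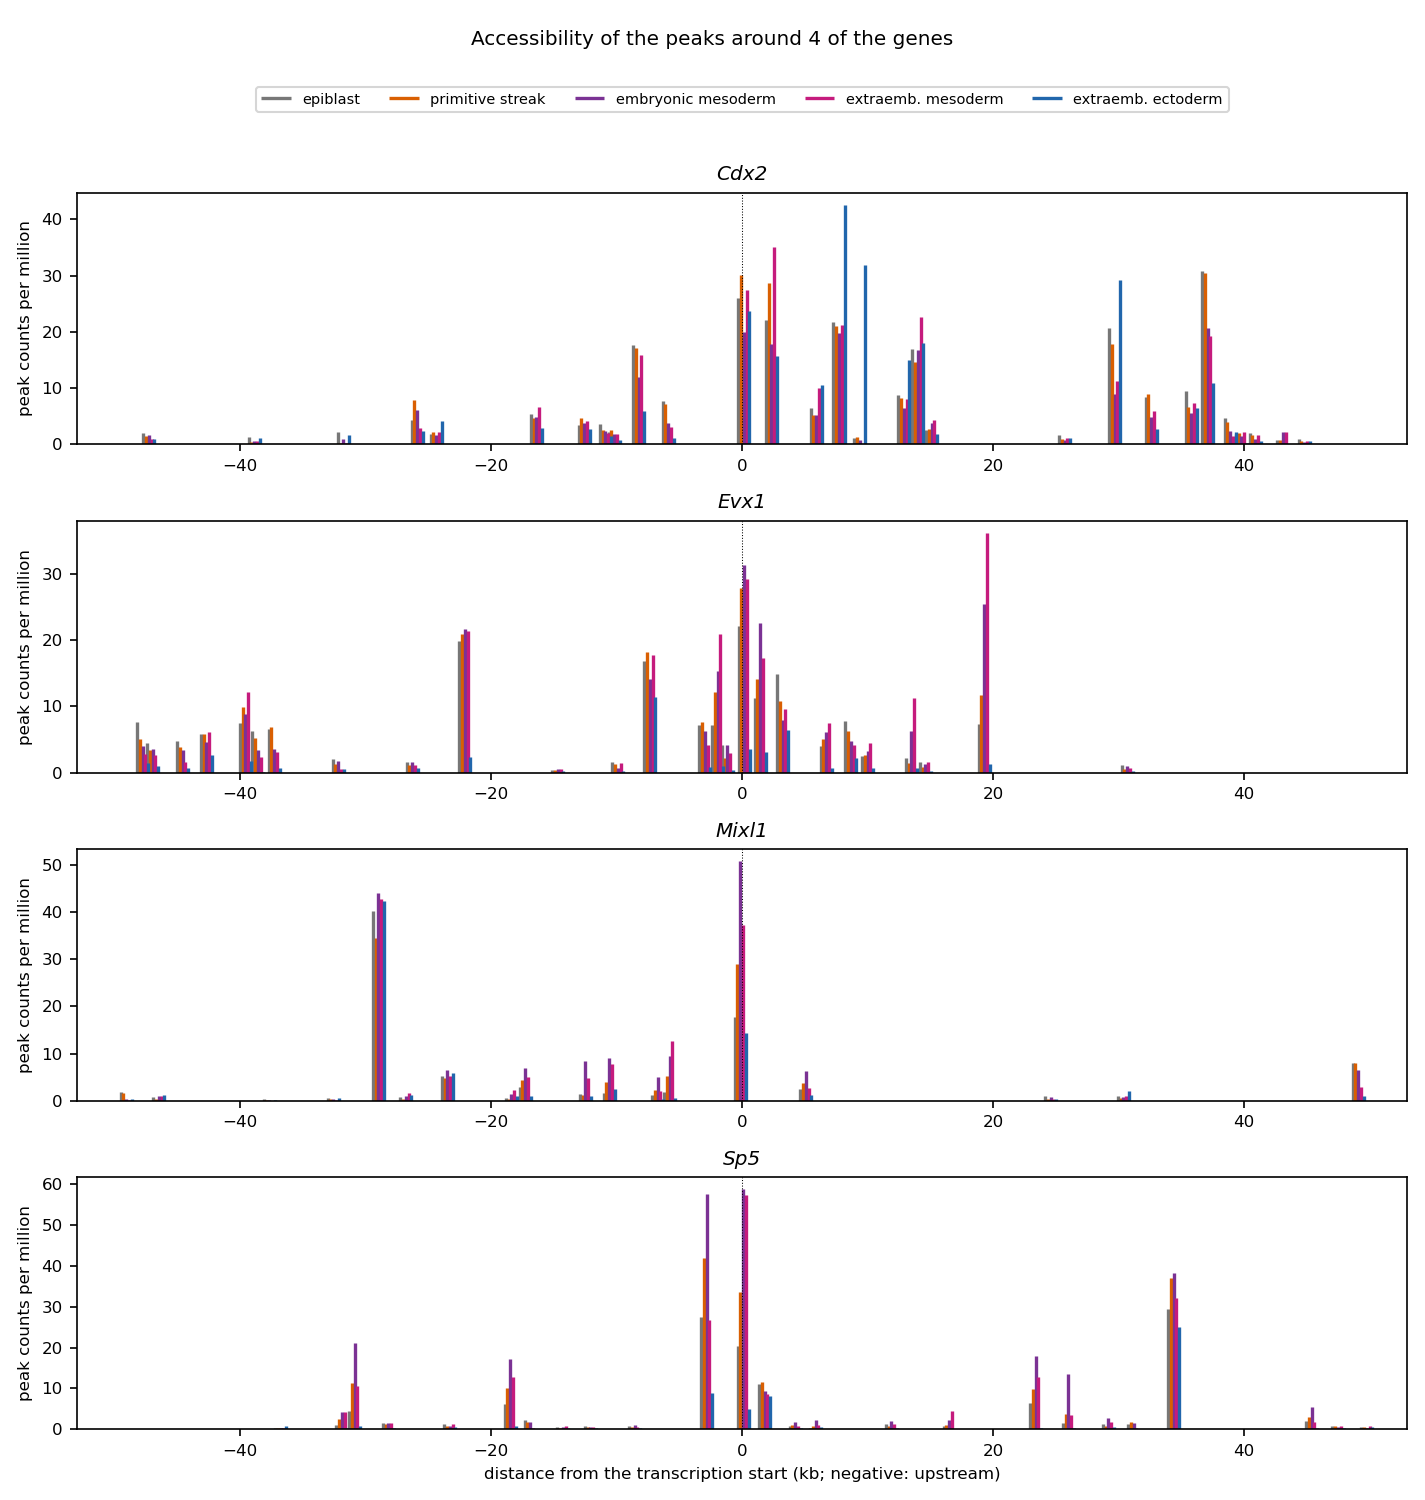
Accessibility (vertical axis, CPM of peak counts) of each peak by its distance from the start of Cdx2, Evx1, Mixl1 or Sp5 (horizontal axis, kb along the direction of transcription), with 1 coloured vertical line per class and small sideways shifts so that the lines can be told apart. The Cdx2 start peak stands between 19.9 and 30.1 CPM in the 5 classes, while the peak 9.38 kb downstream stands at 31.9 CPM in extraembryonic ectoderm and at 1.39 CPM or less in the other 4.

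Across the 17 clusters of nuclei, summed own-promoter counts and RNA had Pearson coefficients, on log2(CPM + 1), of 0.91 for Mixl1, 0.78 for Evx1, 0.76 for Sp5 and Nkx1-2, 0.57 for Cdx1, 0.35 for Cdx4 and 0.03 for Cdx2. These describe 17 points that share libraries and differ in depth. Of the 29 peaks near Cdx2, taken singly, 5 had a coefficient above 0.5 with Cdx2 RNA and 3 one below -0.5, with a median of -0.10. Among the genes themselves, Mixl1 and Sp5 had the highest coefficient (0.90) and Evx1 and Mixl1 the next (0.84), while Cdx2 had negative ones with Mixl1 (-0.36) and Sp5 (-0.38).

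**Figure D4:**
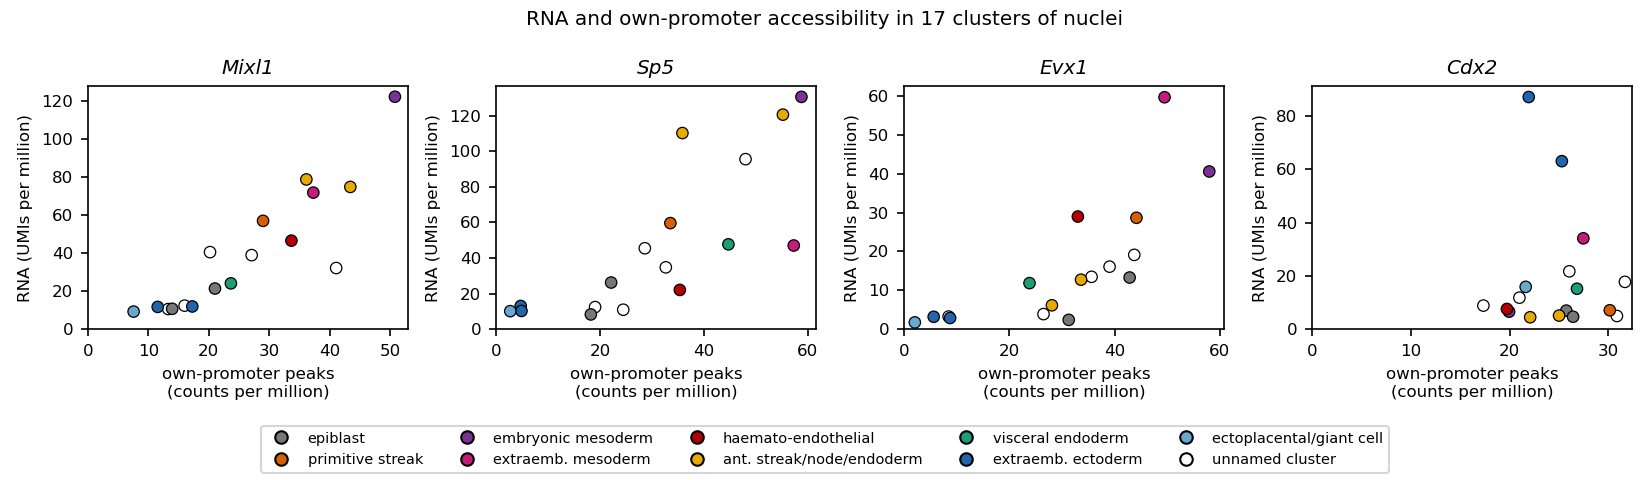
RNA (vertical axis, CPM) against the summed own-promoter peaks (horizontal axis, CPM of peak counts) for 4 genes, 1 point per cluster of nuclei (17), coloured by class. Mixl1, Sp5 and Evx1 points run upward to the right, with coefficients of 0.91, 0.76 and 0.78, and Cdx2 points lie between 17.3 and 31.7 CPM of promoter counts with no such trend (0.03).

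The genes whose RNA followed each member most closely over the 17 clusters were found by the same coefficient among 16016 genes. Mixl1 was followed by Pcdh7 (0.95), 4930556G22Rik, Tiam2, Cdh2 (N-cadherin) and Sh3pxd2a. Sp5 was followed by Frzb (0.94), a secreted Wnt antagonist, then Lhx1, Gad1os, Pcmtd2 and Mixl1. Evx1 was followed by Evx1os (0.95), Mid2, Rspo3, Wnt3 and Bmper, and Cdx2 by Map3k8 (0.93), Nup62cl, Skp1a, Ccdc3 and Morc4. For Cdx1 they were Gm20560 (0.91), the mesoderm genes Mesp1 and Tbx6, Hand2 and Cnmd. Those of Nkx1-2 (Cpne4, Ppfia4, Rerg, Col4a6 and Rbms3) and Cdx4 (Ctso, Rubie, Prdm14, Fendrr and Tapbp) rest on 82 and 21 UMIs of the member. Wnt3, Rspo3, Mesp1, Tbx6 and Lhx1 also served to name classes, and Prdm14 was on the primordial germ cell marker list, which named none of the classes.

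Joint detection of pairs of genes within a class was read at equal depth, and some pairs differed and others did not. In streak, 54.3% (44.8 to 63.6) of the 116 thinned nuclei with Evx1 also had T, against 26.4% (23.4 to 29.4) of the 861 without. For Mixl1 the shares with T were 43.4% and 26.0%, and for Sp5 38.9% and 27.3%. In embryonic mesoderm, 51.7% (47.1 to 56.2) of nuclei with Mixl1 had Sp5 against 38.8% (35.1 to 42.5) of those without. In extraembryonic mesoderm these shares were 30.5% (22.8 to 39.2) and 10.0% (7.17 to 13.5). Evx1 and Sp5 in embryonic mesoderm showed no such difference, at 44.4% (37.2 to 51.8) and 43.9% (40.8 to 47.0). Of the 36 streak nuclei with Cdx2, 18 had T (interval of the share 32.9% to 67.1%), against 28.9% (26.0 to 31.9) of those without. The shares with T were 40.3% (28.1 to 53.6) with and 24.7% (20.8 to 29.0) without Cdx2 in extraembryonic mesoderm, with overlapping intervals, and 7.03% and 7.69% in extraembryonic ectoderm. At 5000 UMIs, 30.3% of embryonic mesoderm nuclei carried 2 or more of the 7 genes, against 11.9% in streak, 20.9% in extraembryonic mesoderm, 4.38% in extraembryonic ectoderm and 3.54% in epiblast. Anterior streak, node and endoderm reached 17.1%, above streak. The share was 6.93% in haemato-endothelial progenitors, 6.42% in visceral endoderm and 3.2% in ectoplacental cone.

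**Figure D5:**
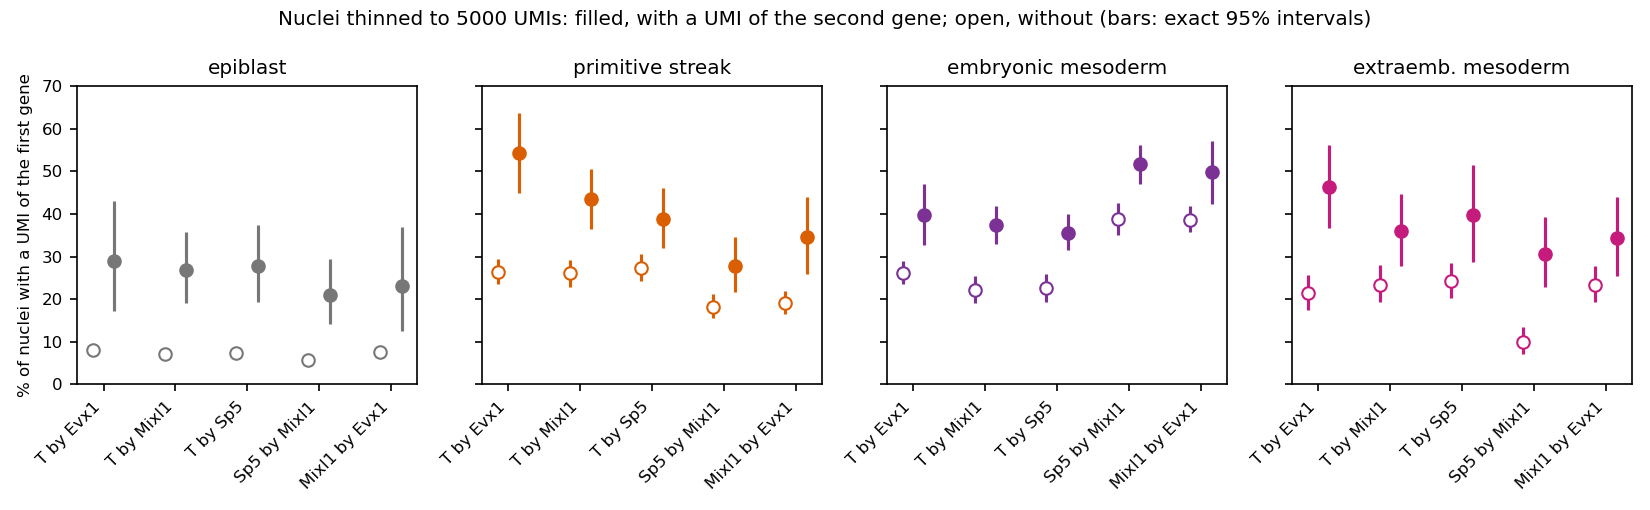
Share of thinned nuclei with a UMI of a first gene (vertical axis, percent) among nuclei with (filled) and without (open) a UMI of a second, for 5 pairs in 4 classes, with exact 95% binomial intervals. In streak, T was seen in 54.3% of nuclei with Evx1 and 26.4% of those without.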

How the data were processed

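The values were raw counts in 1 sparse matrix: UMI counts per gene and counts per accessibility peak, deposited by the authors without normalization. Per the submitters' processing notes they came from Cell Ranger ARC 2.0.0 and mm10. The aligner, the peak caller and the use of strand are not given in the sources used here. Nuclei needed 1000 UMIs, 500 genes, 1000 peak counts and at most 20% mitochondrial UMIs, and of 1153 barcodes that Scrublet (scanpy 1.11.5) called doublets, the 1100 that had passed these filters were removed. Peaks open in 50 or more nuclei, without those near the 7 genes, were weighted by TF-IDF, reduced to 30 components and clustered with leidenalg 0.10.2 at resolution 1. Clusters were named from fixed marker lists by a scoring rule that was settled only once values were known. The genes, lists and rules were chosen with earlier results of these data known.

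Levels were sums per class over the class total. Since 74.0% of the nonzero peak values equalled 2, as when both ends of a fragment are counted, peak intervals used estimated fragments. The code for ratios, intervals and the 2-fold rule was run on simulated counts with known folds, which is a check of the code and not a test of these data. Upstream and downstream follow each gene's direction, read from which RefSeq gene end (GRCm38.p6) its start was closer to. Named genes were the 7 genes, genes of the fixed lists and, for each of the 7, the 5 others with the highest coefficient over clusters (100 UMIs or more). Named peaks were those within 1000 bp of a start and up to 3 distal ones per gene, with 200 or more counts and the largest fold of 1 class over all other nuclei; peaks outside this rule are marked. Alternatives changed the clustering assay, the resolution, the components, the depth filter, the doublet filter, the count minimum, the summary of levels, the thinning and the window.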

Additional observations from a re-analysis of the deposited data

How the results depend on the processing

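Of the RNA counts, embryonic mesoderm over primitive streak depended most on the processing: 4 genes passed 2-fold, but 0 with classes from RNA clusters, at resolution 2 or with doublet calls kept, and 2 at resolution 0.5. Extraembryonic ectoderm over epiblast had 2 genes past 2-fold, but 1 at resolution 0.5 or 2, with 20 components or with 2000 UMIs and 2000 peak counts, and 4 with no minimum of summed counts. Primitive streak over epiblast had 3, and 5 with 20 components. Of the peak counts, embryonic mesoderm over primitive streak had 37 past 2-fold, and 20 with doublet calls kept. The other 51 peak counts and 42 RNA counts stayed within 1.5 times of their reported values. Single values moved more often: 121 RNA ratios moved beyond their intervals and 201 did not, as did 74 levels against 192 and 172 peak ratios against 1431. Without thinning, the shares were 6.10% for Cdx1, 52.0% for Cdx2, 40.9% for Evx1, 57.7% for Mixl1 and 60.8% for Sp5 in their highest classes. A window of 20000 bp held 58 distal peaks in place of 128.

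In all, 8 peak ratios changed direction. With classes from RNA clusters, streak over epiblast gave 1.76 for the peak 34.2 kb upstream of Cdx4 and 1.25 for that 41.7 kb upstream of Nkx1-2 (1.20 and 1.08 at resolution 2). Under the same classes the peak 31.8 kb upstream of Cdx2 gave 0.678 in embryonic mesoderm over streak (0.905 with doublet calls kept) and that 18.4 kb upstream of Mixl1 gave 0.749 in extraembryonic ectoderm over streak. With doublet calls kept, the peak 9.38 kb downstream of Cdx2 gave 1.06 in extraembryonic mesoderm over epiblast. The cause was not tested. Extraembryonic mesoderm had no value with classes from RNA clusters or at resolution 0.5, where no cluster was so named. Joining an unnamed epiblast-led cluster of 1534 nuclei to the epiblast class was added after seeing the data and moved no count of calls by over 1.5 times. With 1 library per assay, no analysis over paired replicates was possible. RNA and accessibility came from the same nuclei, but they were compared over classes and clusters and not nucleus by nucleus. Depth limits Cdx4, Nkx1-2 and Cdx1.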
